A study of Sus scrofa with 21 samples.

Results

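The sperm acrosome is a secretory vesicle over the front of the sperm nucleus, and the genes described here code for proteins of its dense matrix, of its membranes, or of the machinery with which sperm meet the zona pellucida, the glycoprotein coat of the egg. The genes were chosen by name, as rows of the deposited counts whose Ensembl pig gene identifier carries 1 of 9 symbols: ACR, ACRBP, ZPBP, ZPBP2, SPACA1, SPACA3, SPACA4, SPACA7 and SPAM1. Of these, 8 were matched to an identifier among the 25880 genes of the counts, and SPACA7 was not matched and has no value here.

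A testis RNA library was sequenced from each of 13 Landrace and 8 Duroc boars, so that each boar is 1 replicate and the spread includes both animal and library. Hyperactivity is the vigorous, asymmetric beating of the sperm tail that goes with the ability to fertilise. In contrast (i), Landrace boars labelled as high in sperm hyperactivity at day 0, the day of ejaculation (L5, L6, L7 and L8), were compared with Landrace boars labelled as low (L1, L2, L3 and L4). In the contrast of change, Landrace boars whose hyperactivity changed much during 96 h of semen storage (L7, L13 and L15, high change) were set against boars where it changed little (L2, L9, L10 and L12, low change), so that L2 and L7 stand in both contrasts. The Duroc boars labelled High (D1, D2, D3, D4 and D5) were compared with those labelled Low (D6, D7 and D9), and all Duroc boars with all Landrace boars. The labels name no treatment, genotype or age, and all were breeding animals whose testis was sampled at slaughter, not at the ejaculations that were scored.

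Matched by name, 7 of the 8 Duroc boars stand in the other hyperactivity group in the list of boars that the paper prints. The names do not match for D2 and D3, whose libraries held 84446404 and 125576407 counts in genes. These are more than all reads that the paper lists for boars of those names. The count of D3, labelled High, is above the read depth of every boar in the paper's low Duroc group. The name match is therefore unsure, and whether the labels differ from the paper's groups was not tested. The labels were kept as deposited, the Duroc contrast is given as one between labelled groups, and no direction for hyperactivity is drawn from it. The libraries held 41358671 to 125576407 counts in genes, and the 8 genes took 0.168% to 0.242% of them. In contrast (i) the library scaling factor and the share of reads aligned to more than 1 place separated the groups. The trimmed mean of M-values (TMM) factor was 0.822 to 0.986 in the high boars and 1.03 to 1.18 in the low boars, and the share of such reads was 5.83% to 7.20% and 7.53% to 7.92%.

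Acrosomal proteins are made in round spermatids, when vesicles from the Golgi apparatus fuse into the acrosome and spread over the nucleus, and some are transcribed already in spermatocytes. In the mature sperm, the acrosome reaction fuses the outer acrosomal membrane with the plasma membrane and sets the matrix free. ACR codes for proacrosin, the precursor of the serine protease acrosin, and ACRBP for the protein that binds proacrosin in the matrix and controls its activation. SPACA3 codes for a lysozyme-like acrosomal protein without lysozyme activity. SPAM1 codes for PH-20, the membrane-anchored hyaluronidase with which sperm pass the cumulus. ZPBP and ZPBP2 code for a pair of related zona pellucida binding proteins of the acrosome that also shape the sperm head. SPACA1 codes for an acrosomal membrane protein needed for the shape of the acrosome, and SPACA4 for a small membrane-anchored acrosomal protein of the Ly6 family.

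In the RefSeq annotation of Sscrofa11.1, ACR (ENSSSCG00000021265) lies on chromosome 5 from 30127 to 36005 and ACRBP (ENSSSCG00000000700) on chromosome 5 from 64036810 to 64047846. ZPBP (ENSSSCG00000015627) spans 81616 bases of chromosome 9, from 136105129 to 136186744, and its relative ZPBP2 (ENSSSCG00000017493) spans 7945 bases of chromosome 12, from 22454974 to 22462918. SPACA3 (ENSSSCG00000017726) is on the same chromosome 12, from 42046804 to 42050684. SPACA1 (ENSSSCG00000004308) is on chromosome 1 from 56378300 to 56395497, SPAM1 (ENSSSCG00000016601) on chromosome 18 from 23589947 to 23598739, and SPACA4 (ENSSSCG00000025441) on chromosome 6 from 53968485 to 53968865. The ACR span overlaps LOC110260601, the SPAM1 span overlaps LOC106506801 and the SPACA4 span overlaps FAM83E. Reads were counted by strand, and how reads shared by overlapping genes were treated is not given in the sources used here, so these 3 genes are less certain than the rest.

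In contrast (i), ACR, ACRBP and SPACA3 were lower in the high hyperactivity boars, by 1.68-fold to 2.07-fold, while ZPBP, ZPBP2, SPACA1 and SPAM1 had log2 fold changes above 0 that did not pass the test. The groups were compared with the quasi-likelihood test of edgeR, with p adjusted by Benjamini-Hochberg over 12979 genes, and 3 of the 7 tested genes passed an adjusted p of 0.05, all lower in the high boars. Over all tested genes, 15.8% were called lower and 4.82% higher. Testis tissue mixes germ cells of all stages with somatic cells, and in such samples fewer cells of a type and less RNA per cell cannot be told apart.

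The proacrosin gene ACR stood at 222, 193, 214 and 197 CPM (read counts scaled to library size, here by TMM over all 21 libraries) in the low boars L1, L2, L3 and L4. In the high boars L5, L6, L7 and L8 it stood at 132, 78.5, 121 and 85.4 CPM. Each high boar was below each low boar, and among the high boars L6 and L8 were below L5 and L7. The log2 fold change, high over low, was -1.05 (standard error, SE, 0.18, 95% interval -1.44 to -0.66), with an adjusted p of 0.0208 from edgeR, and ACR ranked 17 of the 12979 genes by p.

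ACRBP, the partner of proacrosin, stood at 495, 461, 444 and 432 CPM in L1, L2, L3 and L4, and at 317, 194, 319 and 179 CPM in L5, L6, L7 and L8. The groups did not overlap, and L6 and L8 were again the lowest boars. It fell by 0.93 on the log2 scale (SE 0.20, 95% interval -1.36 to -0.49), with an adjusted p of 0.0208 from edgeR.

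SPACA3, the lysozyme-like gene, was at 42.9, 31.7, 30.7 and 35.5 CPM in L1, L2, L3 and L4 and at 28.8, 17.3, 22.1 and 19.7 CPM in L5, L6, L7 and L8. The groups did not overlap, but L5 came within 2 CPM of the low boar L3. The fitted difference, high over low, was -0.75 on the log2 scale (SE 0.19, 95% interval -1.15 to -0.34), with an adjusted p of 0.0242 from edgeR.

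The number of calls over all genes depended on single boars, and the calls of these genes went with it. Over all genes 2682 were called with all 8 boars, 1 without L3, 1 without L6 and 966 without L1. Without L3 the 3 genes had an adjusted p of 0.0504 from edgeR, and without L6 ACR and ACRBP had 0.0532 and SPACA3 0.0601, so that 0 of the 7 genes passed in either fit. Without L1 only SPACA3 was lost, at 0.0631. The fold changes moved less than the calls: over the 8 fits that each left out 1 boar, the log2 fold change was -1.18 to -0.93 for ACR, -1.07 to -0.78 for ACRBP and -0.89 to -0.64 for SPACA3. The likelihood ratio test and DESeq2 each called the same 3 genes. Scaling by library size alone, an alternative chosen after seeing the data, moved the median log2 fold change of all genes from 0.035 to -0.12 and still called the 3 genes, with ACR at -1.21.

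SPACA4 had 9 to 120 counts per library and did not pass the filter of 1 CPM in 4 libraries. It was at 1.28, 0.93, 1.33 and 1.09 CPM in L1, L2, L3 and L4 and at 0.55, 0.18, 0.62 and 0.23 CPM in L5, L6, L7 and L8. The groups did not overlap, with L6 and L8 once more the lowest. Without the filter, the log2 fold change was -1.56 (SE 0.43, edgeR adjusted p 0.0286 over 21183 genes).

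**Figure D1:**
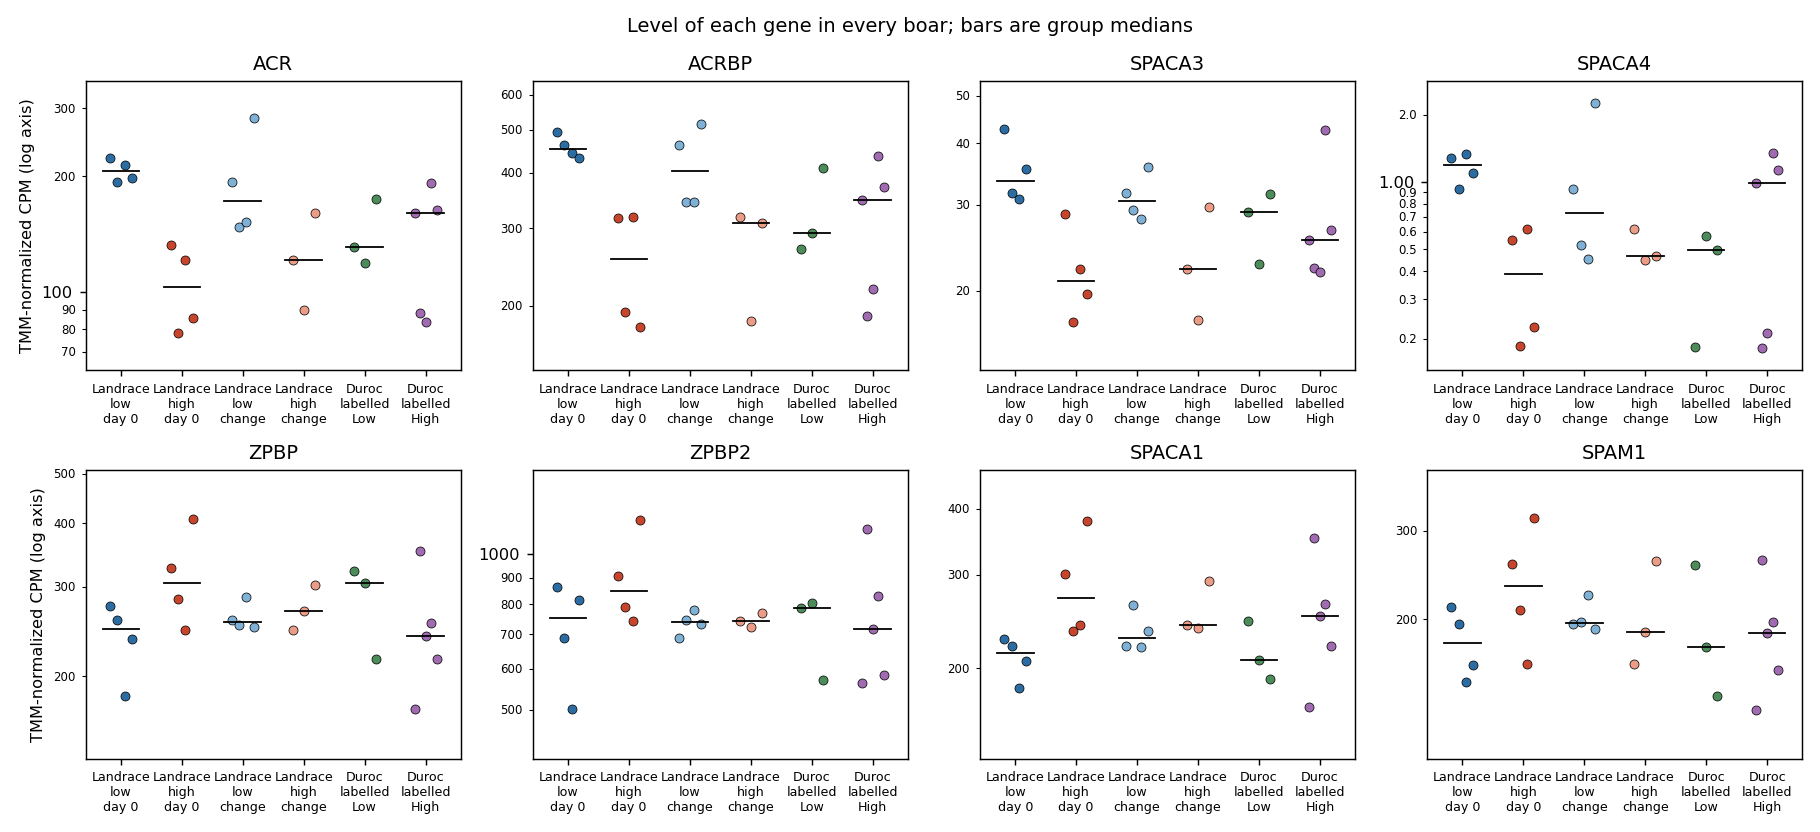
Level of each of the 8 genes in every boar, in TMM-scaled CPM on a log axis, by group (points are boars, bars are group medians, and L2 and L7 appear in both Landrace contrasts). ACR, ACRBP, SPACA3 and SPACA4 are lower in every boar high at day 0 than in any low boar, SPACA1 is higher in every one, and ZPBP, ZPBP2 and SPAM1 overlap, where 31.4% of all tested genes do not overlap.

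The other 4 genes gave no call in contrast (i). ZPBP stood at 275, 258, 182 and 237 CPM in L1, L2, L3 and L4 and at 326, 284, 246 and 407 CPM in L5, L6, L7 and L8. The groups overlapped, since L7 was below L1 and L2. Its log2 fold change was 0.34 (SE 0.17, 95% interval -0.029 to 0.70, edgeR adjusted p 0.145).

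ZPBP2 overlapped as well, at 865, 688, 502 and 815 CPM in L1, L2, L3 and L4 and at 909, 790, 744 and 1165 CPM in L5, L6, L7 and L8. Its log2 fold change was 0.26 (SE 0.18, 95% interval -0.14 to 0.66, edgeR adjusted p 0.294). For both zona pellucida binding genes the lowest boar was L3 and the highest was L8.

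SPACA1 was at 227, 221, 184 and 206 CPM in the low boars, in the same order, and at 301, 235, 241 and 379 CPM in the high boars. These groups did not overlap, with the high boar L6 just above the low boar L1, but the test did not pass. On the log2 scale the difference was 0.39 (SE 0.15, 95% interval 0.05 to 0.73, edgeR adjusted p 0.0824, with an unadjusted p of 0.0268).

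The hyaluronidase gene SPAM1 was at 212, 196, 150 and 162 CPM in the low boars and at 258, 208, 163 and 317 CPM in the high boars. L7 lay among the low boars. SPAM1 had a log2 fold change of 0.32 (SE 0.19, 95% interval -0.09 to 0.73, edgeR adjusted p 0.206). Counting ACR, ACRBP, SPACA3 and SPACA1, 4 of the 7 tested genes had groups that did not overlap, and over all tested genes the groups did not overlap in 31.4%.

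**Figure D2:**
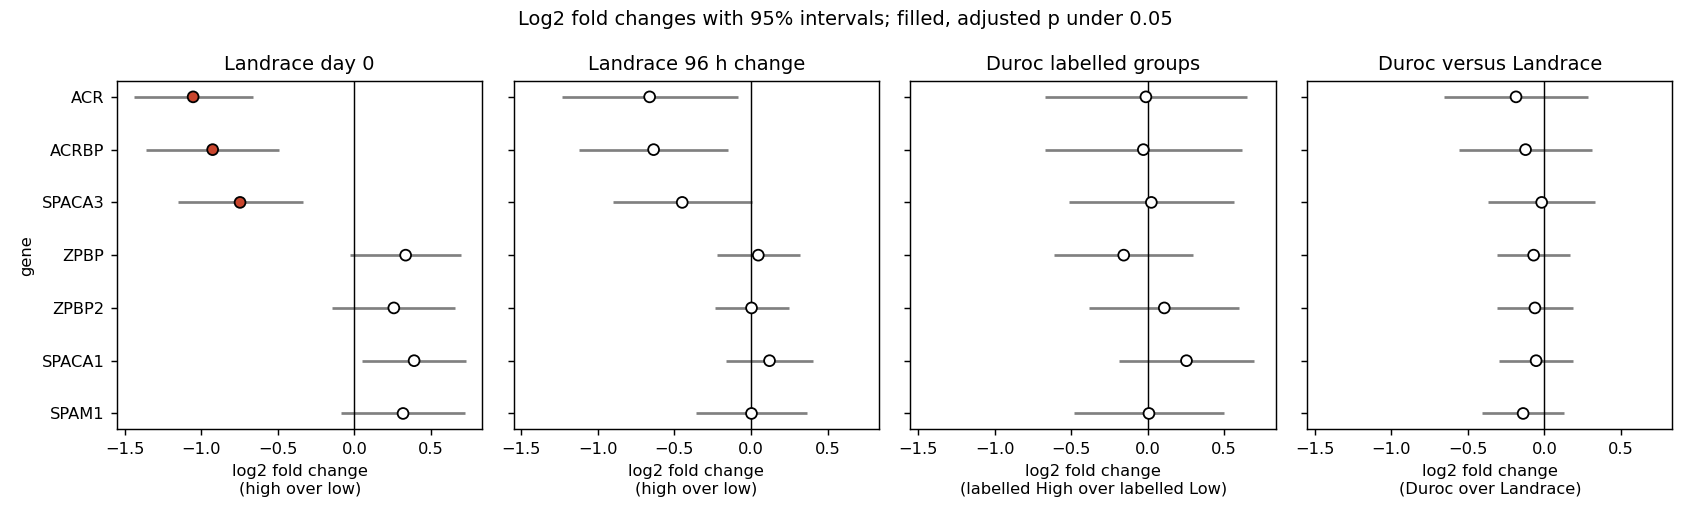
Log2 fold change of the 7 tested genes in each of the 4 contrasts, with 95% intervals and with filled points for an adjusted p under 0.05 by the quasi-likelihood test of edgeR. The filled points are ACR, ACRBP and SPACA3 in the Landrace day 0 contrast, at -1.05, -0.93 and -0.75.

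In the contrast of change over 96 h, ACR, ACRBP and SPACA3 had log2 fold changes below 0 that did not pass the test, and the other 4 tested genes lay near 0. Of the 12824 genes tested, 0% were called by the quasi-likelihood test of edgeR, 2540 had an unadjusted p under 0.05, the likelihood ratio test called 64 and DESeq2 116, none of them among the 7 genes. Since L2 and L7 are in both Landrace contrasts, the values of the contrasts are not independent.

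ACR was at 193, 148, 152 and 282 CPM in the low change boars L2, L9, L10 and L12, and at 121, 89.7 and 160 CPM in the high change boars L7, L13 and L15. L15 was above L9 and L10, so that the groups overlapped, and L12 had the highest ACR level of all 21 boars. The log2 fold change was -0.66 (SE 0.26, 95% interval -1.24 to -0.09, edgeR adjusted p 0.240).

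ACRBP was at 461, 344, 344 and 516 CPM in L2, L9, L10 and L12 and at 319, 185 and 308 CPM in L7, L13 and L15. Among the 7 tested genes it was the one whose groups did not overlap here, against 16.4% over all tested genes. Its log2 fold change was -0.64 (SE 0.22, 95% interval -1.12 to -0.15, edgeR adjusted p 0.240).

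SPACA3 was at 31.7, 29.2, 28.0 and 35.9 CPM in L2, L9, L10 and L12 and at 22.1, 17.4 and 29.6 CPM in L7, L13 and L15. L15 lay within the low change boars, as it did for ACR. Its difference was -0.45 on the log2 scale (SE 0.20, 95% interval -0.90 to 0.0042, edgeR adjusted p 0.254).

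Among the other genes, the log2 fold changes in the contrast of change were 0.048 for ZPBP (95% interval -0.22 to 0.32), 0.0034 for ZPBP2 (-0.24 to 0.25), 0.12 for SPACA1 (-0.16 to 0.40) and 0.0031 for SPAM1 (-0.36 to 0.37), with adjusted p from 0.583 to 0.992 by edgeR. ZPBP2 varied least, at 688 to 781 CPM in the 4 low change boars and 721 to 768 CPM in the 3 high change boars. SPACA4 was at 0.93, 0.52, 0.45 and 2.26 CPM in L2, L9, L10 and L12 and at 0.62, 0.45 and 0.47 CPM in L7, L13 and L15, and L12 was again the highest of all boars.

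Between the labelled Duroc groups, none of the 7 tested genes differed by more than 1.19-fold. The test called 0% of 13043 genes by edgeR, with 158 at an unadjusted p under 0.05, and neither the likelihood ratio test nor DESeq2 called a gene. ACR was at 161, 88.1, 83.5, 192 and 163 CPM in the boars labelled High, D1 to D5, and at 131, 119 and 174 CPM in D6, D7 and D9, labelled Low. The boars labelled High included both the lowest and the highest Duroc boar. High over Low, the log2 fold change was -0.012 (SE 0.30, 95% interval -0.67 to 0.65).

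ACRBP followed, at 347, 190, 219, 436 and 371 CPM in D1 to D5 and at 270, 293 and 409 CPM in D6, D7 and D9. D2 and D3 were the lowest Duroc boars for both genes and D4 the highest. SPACA3 was at 25.4, 22.2, 21.9, 42.6 and 26.6 CPM in D1 to D5 and at 28.9, 22.7 and 31.6 CPM in D6, D7 and D9, so that D4 stood above all other Duroc boars.

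For ZPBP the level was 172, 352, 240, 255 and 216 CPM in D1 to D5 and 322, 305 and 216 CPM in D6, D7 and D9. ZPBP2 ranged from 564 to 1117 CPM in the boars labelled High and from 572 to 804 CPM in those labelled Low, SPACA1 from 169 to 352 and from 191 to 246, and SPAM1 from 132 to 263 and from 141 to 257. For these 4 genes D1 was the lowest Duroc boar and D2 the highest. Of the 7 tested genes, 0 had labelled groups that did not overlap, and over all tested genes this held for 1.3%.

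The difference between the effect of the Duroc labels and the day 0 effect in Landrace was tested as an interaction over 16 libraries, an analysis added after seeing the data. It was 1.02 (SE 0.38) on the log2 scale for ACR, 0.88 (0.39) for ACRBP and 0.75 (0.32) for SPACA3, with unadjusted p of 0.0159, 0.0365 and 0.0329 and an adjusted p of 0.329 for each from edgeR. None of the 7 genes passed, and of the 12920 genes in that fit 0 passed by edgeR, with 1946 at an unadjusted p under 0.05. The effects in the breeds are therefore not shown to differ, and the unsure match of the Duroc boars to the paper's groups applies to this difference too.

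The breeds did not differ in these genes beyond the spread between boars. ACR ranged from 83.5 to 192 CPM in the 8 Duroc boars, with a median of 146, and from 78.5 to 282 CPM in the 13 Landrace boars, with a median of 152. ACRBP had medians of 320 CPM in Duroc and 344 in Landrace, ZPBP 247 and 269, ZPBP2 751 and 768, SPACA1 233 and 235, SPACA3 26.0 and 29.2, and SPAM1 182 and 197. All 7 log2 fold changes, Duroc over Landrace, were below 0, from -0.19 for ACR (95% interval -0.66 to 0.28) to -0.018 for SPACA3 (-0.37 to 0.33), with adjusted p from 0.890 to 0.998 by edgeR. None of the 7 genes was called, and 2.88% of 13126 genes were. In none of the 7 did the breeds separate, against 0.282% of all tested genes. The paper describes the same station, kind of pen and diet for boars of both breeds. Breed and any remaining difference in sampling or library handling cannot be told apart.

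By median, ACR ran from the Landrace boars low at day 0 (206 CPM) through those with low change (172), the Duroc boars labelled High (161), those labelled Low (131) and the Landrace boars with high change (121) to those high at day 0 (103). Each neighbouring pair in this order overlapped. The low Landrace groups share L2 and the high Landrace groups share L7, so where these stand side by side their overlap is fixed in advance. ACRBP ran from 452 to 255 CPM between the same end groups, with the high change boars (308) before the Duroc boars labelled Low (293), and SPACA3 from 33.6 to 20.9 CPM, with the Duroc boars labelled Low (28.9) before those labelled High (25.4). Neighbours overlapped for these genes as well. For ZPBP2, SPACA1 and SPAM1 the boars high at day 0 had the highest median, 849, 271 and 233 CPM, and the lowest was 715 CPM in the Duroc boars labelled High for ZPBP2 and 207 and 176 CPM in those labelled Low for SPACA1 and SPAM1. ZPBP had its highest median, 305 CPM, both in the Duroc boars labelled Low and in the boars high at day 0, and its lowest, 240.3 CPM, in the Duroc boars labelled High. In these 4 genes every group overlapped its neighbour in the order.

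Across the 21 boars 7 of the 8 genes fell into 2 patterns, which were noticed in these values and carry no test. ACR, ACRBP and SPACA3 varied together, and ZPBP, ZPBP2, SPACA1 and SPAM1 varied together. Likeness was measured as the root mean square difference of log2 CPM, with each gene first centred on its own mean over the boars. It was 0.13 between ACR and ACRBP, and 0.23 to 0.25 between these and SPACA3. Within the second pattern the 6 pairs lay between 0.13 and 0.18. Between the patterns, pairs lay between 0.49 and 0.70. SPACA4 was close to neither by this measure, which also grows with the size of a gene's own swings. It varied most, by 12.5-fold at very low counts, and its difference was 0.60 from ACR, 0.63 from ACRBP and 0.79 from SPACA3, and 1.16 to 1.20 from the second pattern. The root mean square of its own deviations was 0.997, against 0.511 for ACR. The deviations of SPACA4 and ACR had opposite signs in L7, L9, L10, L15 and D9 and the same sign in the other boars. In D6 the deviation was -1.52 for SPACA4, -0.12 for ACR and 0.085 for SPACA3. Whether SPACA4 follows the first pattern with larger swings was not tested.

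The mean deviations of the 2 patterns had opposite signs in 12 of the 21 boars. Both means are centred on 0, so unrelated patterns would also have opposite signs in many boars. The count therefore does not show that the patterns oppose each other. The boars named next are examples picked from these values. In L8 the mean deviation was 0.65 for the second pattern and -0.68 for the first, and in the Duroc boar D2 it was 0.49 and -0.58. L3 and D1 were the reverse, with 0.41 and 0.062 for the first pattern and -0.47 and -0.53 for the second. L8 and D2 also had the lowest library scaling factors of their breeds, 0.822 and 0.851, and L3 and D1 the highest, 1.18 and 1.18. The part of library composition in the patterns was not tested.

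**Figure D3:**
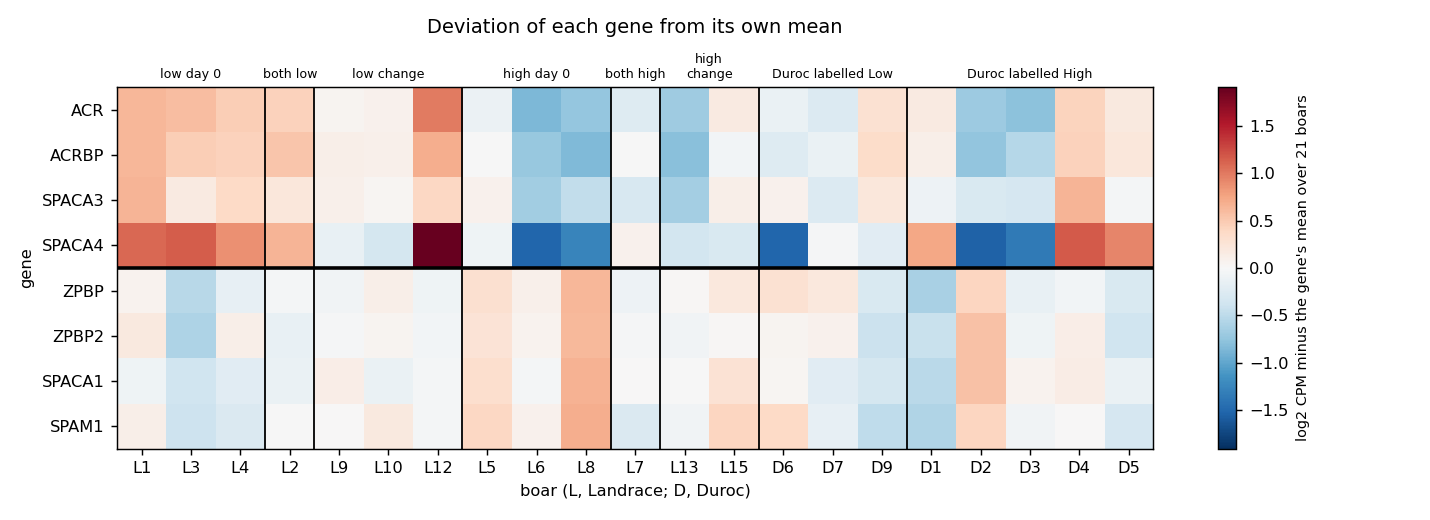
Deviation of log2 CPM from the mean of each gene over 21 boars, with 1 column per boar and red above the mean. The upper 4 genes are above their means in the 4 boars low at day 0 and the lower 4 are above theirs in L5 and L8, with means of 0.32 and 0.65.

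Ratios within a library do not depend on its scaling. The ratio of ACR to ACRBP read counts stayed between 0.380 and 0.548 in the 21 boars, a 1.44-fold range, although ACR itself varied 3.60-fold and ACRBP 2.88-fold. In contrast (i) the ratio was 0.449, 0.419, 0.483 and 0.457 in L1, L2, L3 and L4 and 0.418, 0.404, 0.380 and 0.477 in L5, L6, L7 and L8. The groups overlapped, and the mean log2 ratio was -1.26 ± 0.14 (SD, n = 4) in the high boars and -1.15 ± 0.08 (SD, n = 4) in the low boars (exact permutation test, two-sided, p = 0.229, adjusted p = 0.914 over 8 tests, with 0.0286 the smallest p that 4 boars against 4 allow). In the other 3 contrasts the exact permutation p for this ratio was 0.435 to 1.

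The ratio of ZPBP to ZPBP2 stayed between 0.290 and 0.409, a 1.41-fold range, although these genes lie on different chromosomes and varied 2.37-fold and 2.32-fold. It was 0.305, 0.315, 0.336, 0.307 and 0.370 in the Duroc boars labelled High, D1 to D5, and 0.409, 0.379 and 0.378 in D6, D7 and D9, labelled Low. These groups did not overlap, with a difference in mean log2 ratio of -0.25, High minus Low (two-sided exact permutation test, p = 0.0357, adjusted p = 0.286 over 8 tests). The difference did not pass the adjustment, and 5 boars against 3 allow no p below 0.0179. Without D1, D2, D3 or D4 the exact permutation p was 0.0571, where 4 boars against 3 allow no p below 0.0286. In the other contrasts the exact permutation p for this ratio was 0.600 to 0.914.

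By contrast, the ratio of ACR to ZPBP, chosen after the values were seen and given with no test, ran from 0.210 to 1.17, a 5.59-fold range. It was 0.808, 0.750, 1.17 and 0.834 in L1, L2, L3 and L4 and 0.406, 0.277, 0.492 and 0.210 in L5, L6, L7 and L8. In the contrast of change it was 0.530 to 1.13 in the low change boars and 0.333 to 0.529 in the high change boars, with L10 and L15 nearly equal. Among the Duroc boars it was 0.251 to 0.934 in those labelled High and 0.389 to 0.805 in those labelled Low, and these overlapped.

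**Figure D4:**
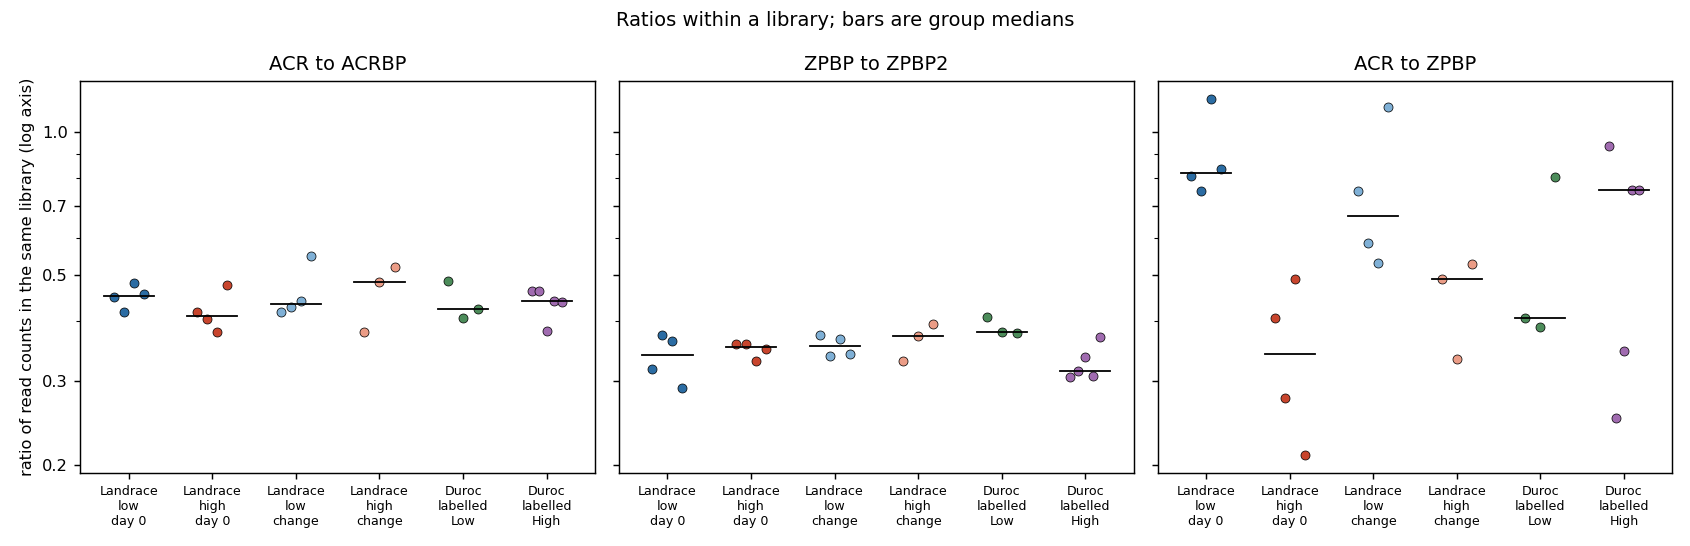
Ratio of read counts of 2 genes within each library, on a shared log axis, by group (points are boars and bars are group medians). ACR to ACRBP and ZPBP to ZPBP2 stay within 1.44-fold and 1.41-fold over all boars, and ACR to ZPBP spans 5.59-fold and separates the day 0 groups.

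For each gene, the gene with a symbol whose levels over the 21 boars were most like it was found among 11046 candidates by the same root mean square difference. For ACR it was RFX1, a transcription factor of the regulatory factor X family, at 0.13, with ACRBP second. For ACRBP it was SF3B2, a splicing factor subunit, at 0.093. For SPACA3 it was MRPL40, of the mitochondrial ribosome, at 0.14, and for SPACA4 it was TUBB4B, a beta tubulin, at 0.30. For ZPBP it was CFAP36, a cilia and flagella associated gene, at 0.093, for ZPBP2 it was MIS18A, of centromere assembly, at 0.089, for SPACA1 it was CAGE1, a testis antigen, at 0.086, and for SPAM1 it was NDC1, of the nuclear pore, at 0.11. Apart from ACR, whose second gene was ACRBP, and SPAM1, for which ZPBP ranked 6, the nearest of the 8 genes to any other ranked from 15 to 452.

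In contrast (i), other genes of the acrosome lay on both sides of 0, with 24 above and 27 below, and 37 were not called. Of 69 listed genes, 58 were matched and 51 tested, of which 12 were lower in the high boars and 2 higher by edgeR, against 15.8% and 4.82% of all tested genes. In the other 3 contrasts 0 of these genes passed by edgeR, the likelihood ratio test or DESeq2. In contrast (i), 0 of them passed by edgeR without L3 or L6, fits in which 1 gene was called in all and 3614 and 4708 had an unadjusted p under 0.05. Without L1 or L8, 7 and 8 of them passed, among 966 and 1228 genes called in all.

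Among genes of the acrosomal content, 5 of 16 tested were lower and none was higher, with a median log2 fold change of -0.20 against 0.035 for all tested genes. PCSK4, a proprotein convertase of sperm, was at 11.6 CPM in the high boars and 32.7 in the low boars, a log2 fold change of -1.56 (SE 0.32, edgeR adjusted p 0.0208). The serine protease gene PRSS21 was at 0.750 and 2.03 CPM, at -1.5, and ARSA, which codes for arylsulfatase A, at 6.56 and 16.8 CPM, at -1.42. ZAN, which codes for the zona binding protein zonadhesin, was at 107 and 199.8 CPM, at -0.97 (SE 0.20, edgeR adjusted p 0.0208), and SPACA9 was at 51.8 and 82.3 CPM, at -0.74.

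Among genes of acrosome formation, 6 of 23 tested were lower and 2 higher, with a median log2 fold change of 0.24. The kinase gene HIPK4 had a log2 fold change of -1.75, the protease gene SPPL2C -1.36, the actin-like genes ACTL9 and ACTL7A -1.12 and -0.68, PICK1, of vesicle traffic from the Golgi apparatus, -1.03, and the glucosylceramidase gene GBA2 -0.98. The genes called higher were GOLGA4 and TRIP11, both of the Golgi apparatus, at 0.48 and 0.47. Their adjusted p from edgeR were 0.0325 and 0.0462. Among genes of acrosomal exocytosis, 1 of 12 tested was lower, NAPA, which codes for the alpha-SNAP protein of membrane fusion, at -1.06 (SE 0.30, edgeR adjusted p 0.0324), and the median was 0.23.

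**Figure D5:**
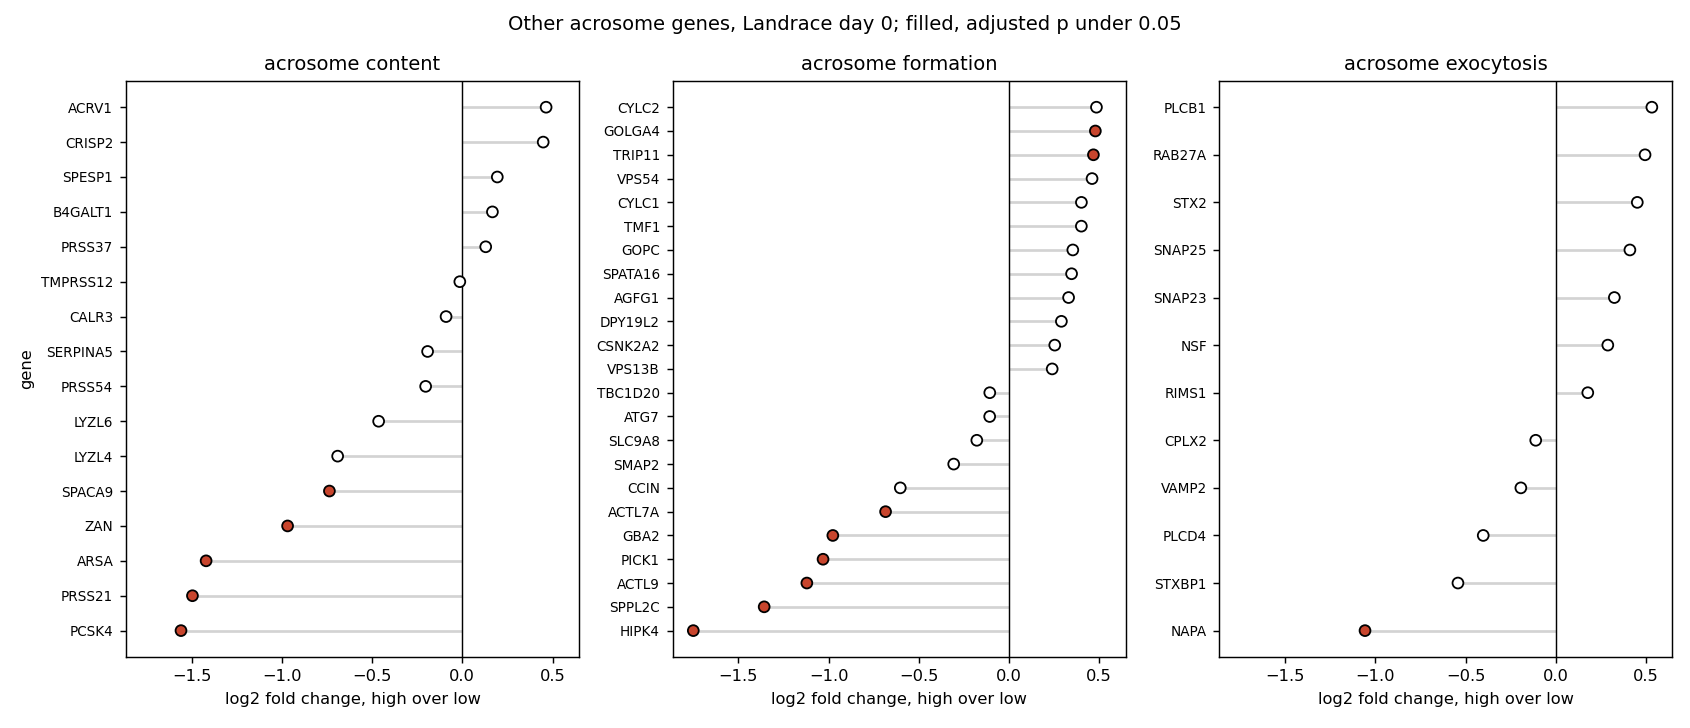
Log2 fold change, high over low, of the other tested acrosome genes in the Landrace day 0 contrast, in 3 panels by role, with filled points for an adjusted p under 0.05 by edgeR. Of the 51 genes, 12 filled points lie below 0 and 2 above, and the unfilled points lie on both sides of 0.

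Some germ cell markers also differed between the day 0 groups, where 15.8% of all tested genes were called lower and 4.82% higher. Of 11 tested spermatid markers, 6 were lower in the high boars, PRM1, TNP2, GAPDHS, CATSPER1, TSSK2 and TSSK6, with a list median of -0.70, while TNP1, ODF1, AKAP4 and SPATA18 had values of 0.071 to 0.31 and PRM2 had -0.21, none of which passed. The summed level of the list was 11762 to 15795 CPM in the high boars and 9468 to 14111 CPM in the low boars, so that it overlapped. All 9 tested spermatocyte markers had log2 fold changes above 0, with a median of 0.43, and 1, the recombinase gene DMC1, passed, while the summed level was 2371 to 3639 CPM in the high boars and 1618 to 2389 CPM in the low boars. No marker of either list was at 0 in all libraries.

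Somatic markers gave fewer calls. Of 4 peritubular markers, MYH11 and DES passed, both lower in the high boars, with summed levels of 17.6 to 63.0 CPM and 47.9 to 103 CPM, and the blood marker HBB was lower, with summed levels of 0.675 to 3.23 CPM and 1.57 to 19.5 CPM. None of the 5 tested spermatogonial, 9 Sertoli, 6 Leydig, 4 endothelial and 3 macrophage markers passed. All 4 tested peritubular and all 4 endothelial markers had log2 fold changes below 0, with medians of -1.08 and -0.29. All 6 Leydig markers were above 0, with a median of 0.34. The spermatogonial, Sertoli and macrophage lists had values on both sides of 0. The Leydig sum was 610 to 4623 CPM in the high boars and 1718 to 2175 in the low boars, and for the other 4 lists the sums also overlapped between the groups. In the lists of spermatogonia and Sertoli cells 1 marker each was at 0 in all libraries. The part of germ cell or somatic cell content in the lower ACR, ACRBP and SPACA3 was not tested. In the contrast of change all 11 spermatid markers had values below 0, from -1.29 to -0.32, and none passed by edgeR. There all 6 Leydig, 4 endothelial and 3 macrophage markers were above 0, with medians of 0.59, 0.54 and 0.45. Of the 9 Sertoli markers 8 were above 0, with a median of 0.32. Of the 4 peritubular markers 3 were above 0, the blood marker was below 0, and none of these passed.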

How the data were processed

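Reads of stranded mRNA libraries were trimmed by the authors (Trimmomatic 0.36), mapped to the pig build Sscrofa 11.1 (STAR) and assigned by strand to Ensembl genes (HTSeq). They deposited raw read counts per gene, without normalization, with 1 library per boar. Reads that HTSeq assigned to no gene, 29.4% to 39.0% of its total, were left out of library sizes and tests.

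The tools were edgeR 4.0.16 and DESeq2 1.42.0 under R 4.3.3. A gene was tested where 4 or more libraries of a contrast reached 1 CPM, or 8 for the breeds. Libraries were scaled by TMM, and edgeR's quasi-likelihood test was adjusted by Benjamini-Hochberg over all tested genes, with a threshold of 0.05. The study used a likelihood ratio test, run here as an alternative. Fold changes came from each contrast's own TMM, levels from TMM over 21 libraries, and likeness from log2 CPM with a prior count of 2. Ratios were tested with 1 count added to each gene. Fits were tested on simulated counts. Replicate pairs differed well beyond counting noise.

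The genes and lists were chosen with earlier results of these data known. Besides the 8 genes, list genes that passed a main test and the gene most like each gene were named, with markers beside their lists. Levels were not compared between genes, since transcript lengths were not used here. Symbols came from a table that named 14857 identifiers. A planned search of promoters for motifs was not run, since no promoter sequence was used here. No dates of sequencing or sampling were labelled. Other alternatives were relative log expression (RLE) scaling, no filter and a filter of 5 CPM, a robust fit, all Landrace boars in 1 fit, subsets of boars and each boar left out.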

Additional observations from a re-analysis of the deposited data

Results flagged for a closer look

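Of 55 groups of 4 to 8 boars checked for a boar far from the rest, 3 held one, where chance gives about 2.75. SPACA3 in D4 was 42.6 CPM, against 21.9 to 26.6 CPM in the other 4 Duroc boars labelled High and 21.9 to 31.6 CPM in the other 7 Duroc boars. The ratio of ACR to ACRBP in D3 was 0.382, against 0.440 to 0.463 in the other 4 Duroc boars labelled High. Without D4 the log2 fold change of SPACA3 between the labelled Duroc groups was -0.18 and without D3 the difference in the log2 ratio was 0.046, with 0.024 and -0.00317 over all 8 boars.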

How the results depend on the processing

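The calls of ACR, ACRBP and SPACA3 in contrast (i) held under the likelihood ratio test, DESeq2, RLE scaling, both other filters, a robust fit, library size alone, all Landrace boars in 1 fit and without L2 and L7. With no filter and with all Landrace boars in 1 fit SPACA4 was called too. Among the Landrace boars it was above 1 CPM only in L1, L3, L4 and L12, all of low groups. Its entry into the fit of all Landrace boars therefore rested on low boars alone. Leaving out each boar gave 0 to 3 of these genes and 0 to 21 other acrosome genes, while the genes called in all ran from 1 to 3764. Of 2682 genes called 76.7% were lower, against 62.8% of 3922 with DESeq2, 85.9% of 1661 at 5 CPM and 95.9% of 2562 with library size alone. The 3 genes were lower in each. No paired analysis was possible because replicate numbers were given in accession order.

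Of 406 values of the 7 genes under the alternatives, 37 turned sign, all of them uncalled values near 0, and the cause was not tested. In the contrast of change, ZPBP2 and SPAM1 were -0.016 and -0.017 at 5 CPM, SPAM1 was -0.010 with all Landrace boars in 1 fit, and ZPBP2 was -0.00567 without L2 and L7. Leaving out each boar gave -0.035 to 0.12 for ZPBP, -0.021 to 0.034 for ZPBP2 and -0.22 to 0.14 for SPAM1. ACR, ACRBP and SPACA3 stayed below 0 there, at -0.89 to -0.41, -0.77 to -0.42 and -0.67 to -0.28. Between the labelled Duroc groups, SPACA3 and SPAM1 were -2.79e-04 and -0.025 with DESeq2, -2.65e-04 and -0.025 with RLE scaling, -0.012 and -0.036 with no filter, and -0.00606 and -0.032 at 5 CPM, and SPAM1 was -0.017 with library size alone. Leaving out each boar gave -0.16 to 0.23 for ACR, -0.17 to 0.24 for ACRBP, -0.058 to 0.19 for ZPBP2, -0.18 to 0.18 for SPACA3 and -0.13 to 0.24 for SPAM1. Duroc over Landrace, ZPBP2 and SPACA3 were 0.013 and 0.012 against the 5 Landrace boars in the contrast of change alone, and SPACA3 was 0.017 without L8, D2, L3 and D1, a subset chosen after seeing the data.

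The difference in log2 ratio of ACR to ACRBP, with each boar left out, was -0.089 to 0.14 in the contrast of change and -0.058 to 0.073 between the labelled Duroc groups. That of ZPBP to ZPBP2 was -0.0072 to 0.12 in contrast (i), -0.015 to 0.11 in the contrast of change and -0.30 to -0.22 between the labelled Duroc groups, where it was negative in each fit. Adding 10 counts in place of 1 kept each ratio's direction and its side of 0.05. SPACA4 is limited by depth, at 9 to 120 counts, and the counts do not limit the other genes, which had at least 1213.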
